A study of Mus musculus with 16 samples.

Results

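The 10 genes described here encode the COPII coat, the protein shell that buds transport vesicles from the endoplasmic reticulum. They were taken as every probe set that the array annotation assigns to exactly 1 gene symbol, the symbol being Sar1a, Sar1b, Sec13, Sec31a, Sec23a, Sec23b, Sec24a, Sec24b, Sec24c or Sec24d. This gave 14 of the 45141 probe sets of the table and 10 of its 17097 genes. The set was chosen by measured values of these arrays, above all the log2 differences between p38α-lox and MMTV-Cre arrays, in which Sar1a had among the lowest p-values. Values of that comparison, and of any comparison of Sar1a that shares its arrays, are therefore given as a description without a test.

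Newly made secretory and membrane proteins leave the endoplasmic reticulum in COPII vesicles. The small GTPase Sar1 inserts into the membrane in its GTP form and recruits the inner coat, a dimer of Sec23, which stimulates GTP hydrolysis by Sar1, and Sec24, which binds the cargo. The outer coat of Sec13 and Sec31 then forms the cage that bends the membrane. Mammals have several Sec24 proteins with overlapping cargo preferences, of which Sec24a and Sec24b form 1 related pair and Sec24c and Sec24d the other. Luminal mammary cells, which make and export milk proteins, carry a heavy secretory load when they differentiate.

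Total RNA of the luminal population of the mouse mammary gland, isolated by cell sorting, was measured on 16 Affymetrix arrays in 4 groups of 4. The p38α-lox PyMT group carried floxed p38α together with the MMTV-Cre and MMTV-PyMT transgenes, and the PyMT group carried MMTV-Cre and MMTV-PyMT. Both were from mice of 6 weeks. The p38α-lox group carried floxed p38α and MMTV-Cre, and the MMTV-Cre group carried the Cre transgene alone. These were from mice of 9 weeks, so the presence of PyMT and the age of the mice cannot be told apart. All 4 groups carried MMTV-Cre, which expresses the recombinase in mammary epithelium but not necessarily in every cell, and PyMT is the polyoma middle T oncogene under the same promoter. p38α is the stress-activated kinase encoded by Mapk14. Fewer cells of a type and less RNA per cell cannot be told apart in such bulk samples.

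The values are deposited log2 signals made by RMA, which scales every array to the same distribution, so that levels are relative to the other transcripts of the sample and levels of different probe sets are not compared. Array medians lay between 4.63 and 4.88 and correlations between arrays between 0.885 and 0.990. The arrays with the lowest median correlation to the others were PyMT replicate 4 and p38α-lox replicate 2, both at 0.934, and results that rest on them are given with and without them. Mapk14 averaged 7.23 ± 0.103 in p38α-lox PyMT, 7.20 ± 0.321 in PyMT, 7.31 ± 0.862 in p38α-lox and 6.53 ± 0.885 in MMTV-Cre arrays (SD, n = 4 each) on the brightest of its 6 probe sets. On that probe set Mapk14 read 6.791, 6.371, 7.906 and 8.159 in p38α-lox arrays, against 7.106, 7.43, 5.555 and 6.024 in MMTV-Cre arrays. The sample titles carry numbers of unstated meaning that split at 2100, with 2 arrays of either group on each side. The Mapk14 difference was −0.69 among arrays with low title numbers and 2.24 among those with high ones, so among these the targeted gene read higher in the arrays labelled p38α-lox. Over all arrays the p38α-lox mean was below that of MMTV-Cre for 0 of 6 Mapk14 probe sets, and the p38α-lox PyMT mean lay below the PyMT mean for 5 of 6, where it differed by −0.38 at most. Neither the labels nor the annotation place the probe sets relative to the floxed part. The genotypes were therefore not checked by these values, and every direction drawn between p38α-lox and MMTV-Cre arrays rests on the labels. Values on either side of the split are given for Sar1a, Sec13, Sec24c and some export partners of the coat. The luminal keratins Krt8 and Krt18 and the epithelial adhesion molecule Epcam averaged 12.28, 12.12 and 11.49 over all arrays, but markers of other cells were measured too, with the basal keratin Krt5 reaching 11.516 and the macrophage protein Cd68 9.439 on single arrays.

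Promoters of the 10 genes were read from RefSeq (GRCm38.p6) as windows of 250 bases before to 50 bases after each gene's start, and all 10 matched. The 10 members had 12 windows, and a gene was counted once if any of its windows held a run. A run of 7 bases, GCCACGT on either strand, occurred in the windows of 6 members, which is 60% of them, against 798 of 27025 genes with such a window (2.95%). Other lists of the secretory pathway also held it above that share, with 29.4% of the translocon and signal peptidase genes, 28.6% of the COPI coat, 21.6% of the export partners of COPII, 8.33% of the unfolded protein response list and 7.14% of the clathrin list. The run was picked after the members' promoters had been read, so its frequency among them is a description. The matches are printed on the strand that reads GCCACGT, in capitals, with 10 bases on either side, because they let the 6 promoters be compared letter by letter.
Sar1a: gacagacgctGCCACGTcttaccccgc
Sec13: gttttgagctGCCACGTccgaggccgt
Sec31a: ggctgcggctGCCACGTtggagcggag
Sec23a: tgccgcctctGCCACGTcaaaggggag
Sec24c: cactccttctGCCACGTcggccttagg
Sec24d: ggttgctagtGCCACGTcaggcgcccg

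The stretch of Sar1a, whose brighter probe set was lowest in p38α-lox arrays, lies at chr10:61680117-61680143 on the plus strand, and its match begins 158 bases before the start of the gene. That of Sec24d, the member that was higher with PyMT, lies at chr3:123267462-123267488 and is read from the minus strand, opposite to the gene, 24 bases before the start. The Sec24c stretch (chr14:20674236-20674262, minus strand, opposite to the gene) lies 75 bases before the start, and the Sec13 stretch (chr6:113740668-113740694, minus strand, that of the gene) 3 bases before it. In Sec31a (chr5:100416206-100416232, minus strand, that of the gene) and Sec23a (chr12:59011993-59012019, plus strand, opposite to the gene) the match lies just inside the transcribed part, from positions 13 and 9 counted from the start base as 1. The windows of Sar1b, Sec23b, Sec24a and Sec24b do not hold these 7 letters, and neither does a further window of Sec31a.

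Shorter and longer runs that share letters with GCCACGT were counted as well, on both strands. The run CCACG, the 3′ part of the endoplasmic reticulum stress element, was in the windows of 7 of 10 members, against 35.5% of all genes, 71.4% of the COPI coat and 75% of the unfolded protein response list. ACGTG was in 8 of 10 against 21.8% of all genes and 64.3% of the COPI coat. TGACGTGG, which overlaps GCCACGT read on the other strand, was in the windows of Sec23a and Sec24d (20% of members, against 0.714% of all genes), and in those of 5 of 14 genes of the COPI coat (35.7%). The complete stress element, CCAAT followed 9 bases later by CCACG, was found for 0 of 10 members, for 8 of 24 genes of a list of regulators of the unfolded protein response and chaperones (33.3%), and for 0.137% of all genes. These are matches of letters in a window and no measurement of binding.

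p38α-lox arrays were set against MMTV-Cre arrays to ask what a floxed p38α allele does in luminal cells without the oncogene. In p38α-lox arrays 7 of 10 members had lower estimates, where 49.9% of all 14410 genes tested did, and the median log2 difference of the members was −0.29 where that of all genes was 0.000497. The lower estimates were those of the GTPase Sar1a, both outer coat genes, both Sec23 genes, Sec24b and Sec24c, each read by its brightest probe set. Between these groups limma called 0% of all genes at an adjusted p below 0.05 (690, or 4.79%, at an unadjusted p below 0.05), and the members' values carry no test.

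Sar1a showed the largest difference of the members. On its brighter probe set the p38α-lox arrays read 9.088, 8.812, 8.867 and 8.858, against 9.350, 9.482, 9.611 and 9.445 in MMTV-Cre arrays. All 4 p38α-lox values lay below all 4 MMTV-Cre values, a separation in this direction that 1.17% of all genes showed. The log2 difference was −0.57 ± 0.129 (SE), or 0.676 times the MMTV-Cre level. Among arrays with low and with high title numbers it was −0.47 and −0.67, with 2 arrays against 2 in each.

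The other probe set of Sar1a did not show this. It read 7.374, 7.874, 8.405 and 8.472 in p38α-lox arrays, against 8.017, 8.387, 8.053 and 7.877 in MMTV-Cre arrays. Here the groups overlapped, the p38α-lox arrays spread over more than 1 log2 unit, and the difference was −0.05 ± 0.248. The mean of both probe sets gave −0.31. No source here says which transcripts each probe set reads, so the lower Sar1a signal of p38α-lox arrays is a statement about the brighter probe set alone.

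Sar1b, the paralogue whose human counterpart is mutated in a disorder of chylomicron secretion, averaged 10.2 ± 0.367 in p38α-lox and 10.1 ± 0.341 in MMTV-Cre arrays, a difference of 0.07 ± 0.211. With an array left out the Sar1b estimate ran from −0.09 to 0.21, so its sign was not determined.

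Among the outer coat genes, Sec13, whose protein also sits in the nuclear pore, read 8.041, 8.546, 8.455 and 8.617 in p38α-lox arrays, against 8.900, 8.636, 9.173 and 8.643 in MMTV-Cre arrays. The groups did not overlap, though the closest values, 8.617 and 8.636, lay within 1 SD of each other, and the difference was −0.42 ± 0.216, or −0.47 and −0.37 among arrays with low and with high title numbers. Sec31a, the partner that completes the cage, averaged 7.47 ± 0.385 in p38α-lox and 7.87 ± 0.453 in MMTV-Cre arrays, with overlapping values and a difference of −0.40 ± 0.237. Sar1a and Sec13 were the only members whose arrays did not overlap in this comparison, where 1.17% of all genes did not overlap in this direction. The genes were proposed through this comparison, so the count is a description.

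The Sec23 genes, whose products activate the Sar1 GTPase, had differences of −0.33 ± 0.339 (Sec23a) and −0.46 ± 0.283 (Sec23b), with overlapping arrays. Of the cargo adaptors, Sec24b differed by −0.25 ± 0.296 and Sec24c by −0.22 ± 0.270, and Sec24a by 0.09 ± 0.217 and Sec24d by 0.22 ± 0.182. For Sec24c the difference was −1.0 among arrays with low title numbers and 0.57 among those with high ones. Its p38α-lox arrays read 8.017, 7.664, 8.945 and 9.080, and thus fell into 2 low and 2 high values that followed the title numbers.

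**Figure D1:**
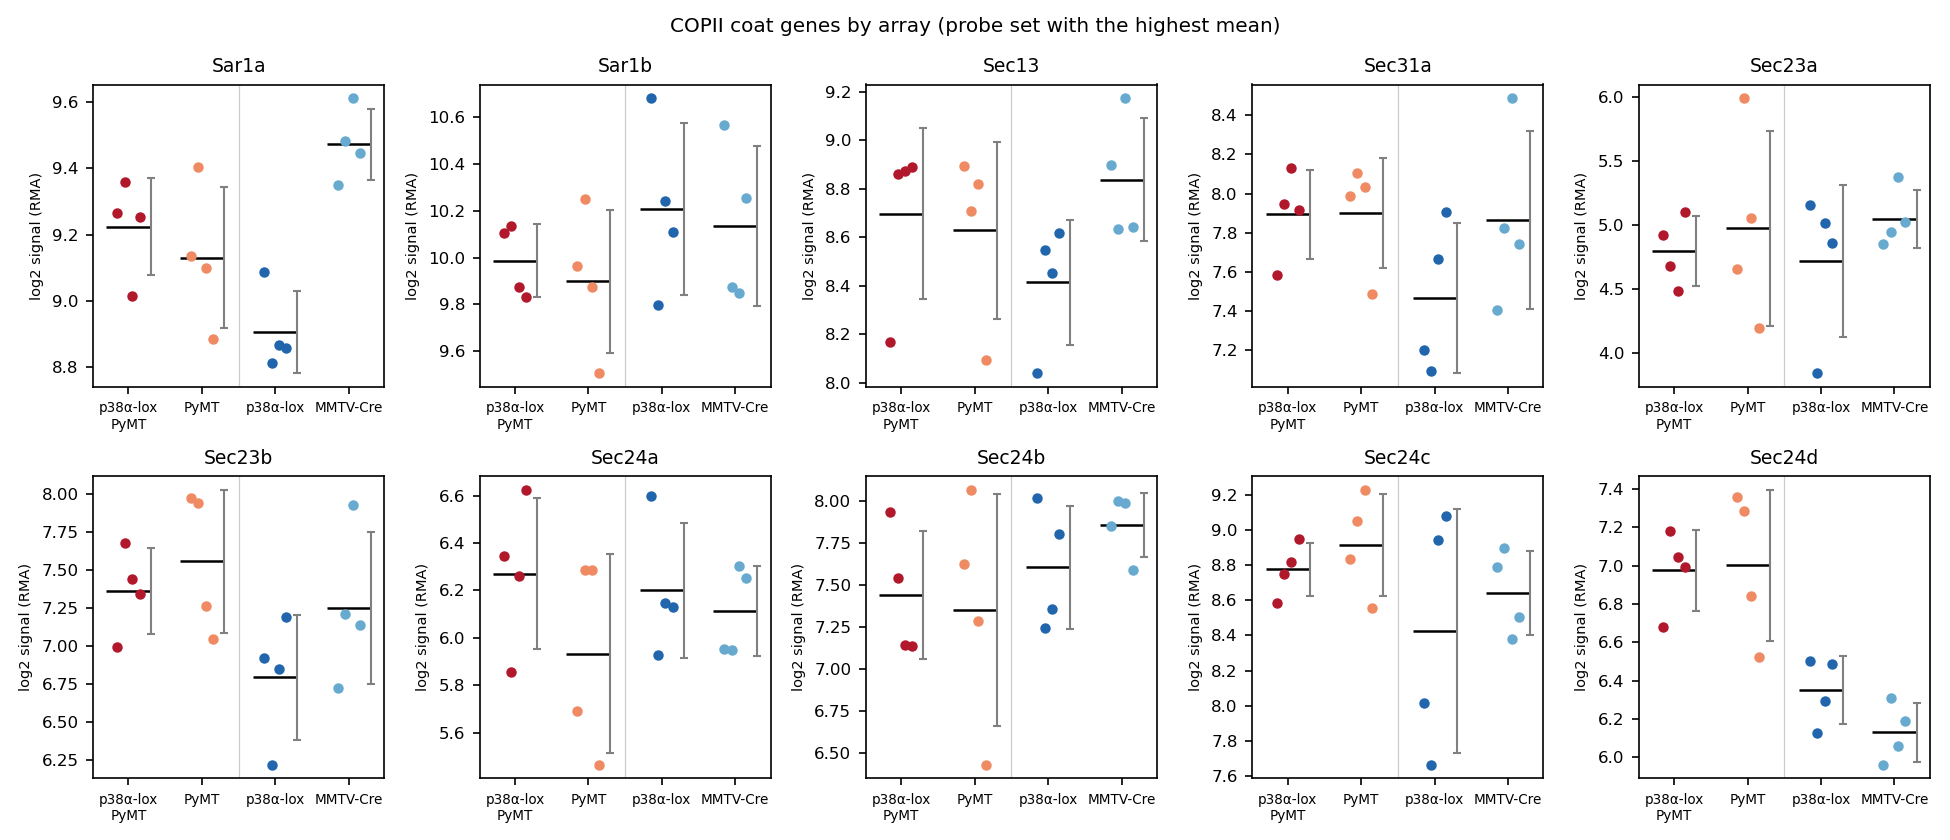
Log2 RMA signal (y axis) of each COPII gene on each array for the 4 groups (x axis), read by the probe set with the highest mean. Points are arrays, black lines group means and grey bars the SD of 4 arrays. The 4 p38α-lox points of Sar1a lie below the 4 MMTV-Cre points, and the 8 Sec24d points with PyMT lie above the 8 without it.

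Much of the lower median rested on p38α-lox replicate 2. That array was the lowest of its group for 9 of 10 members, where it was the lowest for 23.4% of all genes. Without it and PyMT replicate 4, an alternative added after seeing the data, 6 of 10 members had lower estimates, where 8461 of all 14410 genes did. The members' median was −0.08, where that of all genes was −0.04. Sar1a (−0.53) and Sec13 (−0.47) kept their differences, while Sec23a came to −0.04 and Sec24c to 0.04.

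PyMT replicate 4 was likewise the lowest of its group for 10 of 10 members, where it was the lowest for 30.6% of all genes. It read 8.885 for Sar1a, 8.093 for Sec13 and 6.432 for Sec24b. The heat map of deviations from each gene's mean shows both arrays mostly below the gene means. Over all 16 arrays the 45 pairs of members had a median Pearson correlation of 0.356, with 38 pairs above 0, and without these 2 arrays the median was 0.0518, with 23 pairs above 0. These correlations share libraries and are given as a description.

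**Figure D2:**
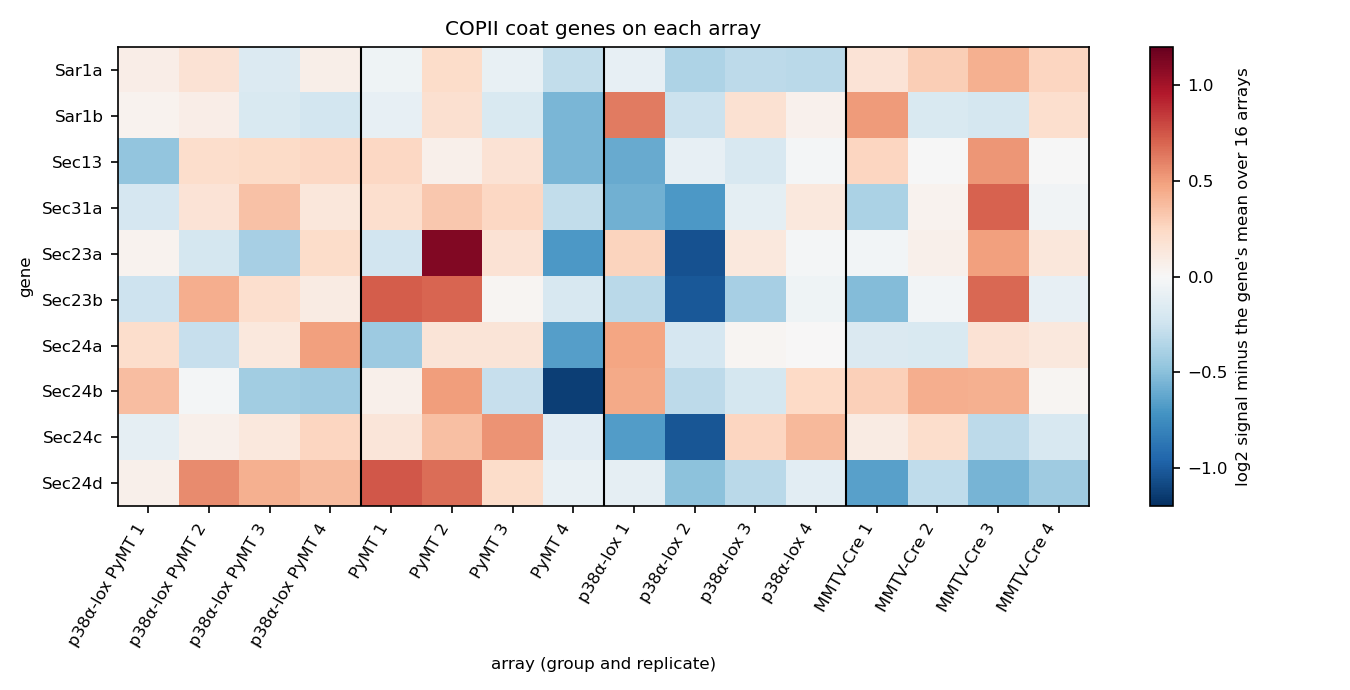
Log2 signal of each COPII gene (rows) on each array (columns, by group and replicate) minus the gene's mean over 16 arrays, in colour from blue (lower) to red (higher). PyMT replicate 4 was the lowest array of its group for 10 of 10 genes and p38α-lox replicate 2 for 9 of 10, and the Sec24d row is mostly red with PyMT and blue without it.

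The comparison of p38α-lox PyMT with PyMT arrays asks the same of cells that carry the oncogene, and it shares no array with the comparison through which the genes were proposed. Of the 10 members limma called 0, as it did 0% of all genes at an adjusted p below 0.05 (516 genes, 3.58%, had an unadjusted p below 0.05, and 0 of the members). The estimates lay between −0.19 ± 0.283 for Sec23b and 0.34 ± 0.217 for Sec24a, 5 below 0 and 5 above it, where 58.2% of all genes lay below and 41.8% above, with a median of 0.03 where that of all genes was −0.04. The adjusted p was 0.999 for each member, and 0 members had arrays that did not overlap, where 1.89% of all genes did not overlap in the lower and 0.659% in the higher direction.

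Sar1a on its brighter probe set read 9.265, 9.359, 9.015 and 9.254 in p38α-lox PyMT arrays, against 9.134, 9.404, 9.098 and 8.885 in PyMT arrays. The groups overlapped over most of their range. The difference was 0.09 ± 0.129, with a 95% interval from −0.18 to 0.37. The other probe set differed by 0.01 ± 0.248. The difference between the p38α-lox effects with and without PyMT was 0.66 ± 0.183 for Sar1a on the brighter probe set and 0.07 ± 0.350 on the other. As this difference holds the comparison that led to the choice of genes, it carries no test.

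For the remaining members the intervals were wide. Sec13 differed by 0.07, with an interval from −0.39 to 0.53, and Sec31a by −0.01, with one from −0.51 to 0.50. The interval of Sec23a ran from −0.90 to 0.55 and that of Sec24d from −0.42 to 0.36. Differences anywhere within these intervals remain compatible with the values of 4 arrays a group. Leaving out the 2 arrays of lowest correlation gave 8 of 10 lower estimates and a median of −0.17, with 0 members called. In that fit 8181 of 14410 genes had lower estimates, with a median of −0.03.

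**Figure D3:**
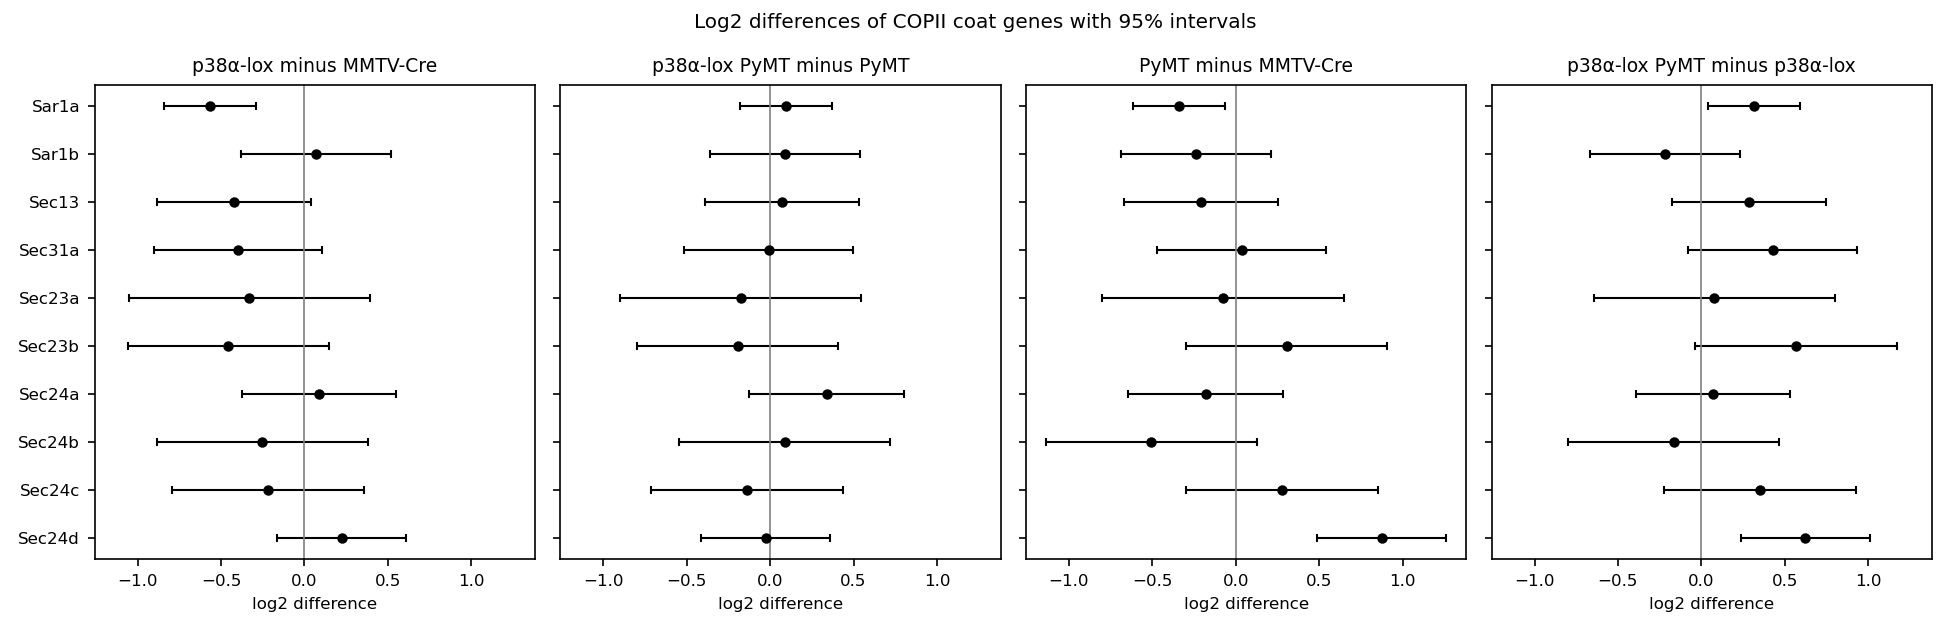
Log2 differences (x axis) of the 10 COPII genes (y axis) with 95% intervals from the fit over 16 arrays, in 4 comparisons from left to right. The intervals of all 10 genes cross 0 in p38α-lox PyMT minus PyMT, and those of Sec24d lie above 0 in both comparisons of PyMT.

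PyMT arrays were also set against arrays without the oncogene, once without and once with floxed p38α. Sec24d, a cargo adaptor of the Sec24c/Sec24d pair, was the member that stood out. Sec24d read 6.678, 7.182, 7.046 and 6.995 in p38α-lox PyMT arrays and 7.361, 7.288, 6.840 and 6.523 in PyMT arrays, against 6.505, 6.125, 6.292 and 6.487 in p38α-lox and 5.962, 6.309, 6.057 and 6.190 in MMTV-Cre arrays. The lowest array with PyMT, at 6.523, lay just above the highest without it, at 6.505. The means were 6.98 ± 0.213, 7.0 ± 0.394, 6.35 ± 0.179 and 6.13 ± 0.152 (SD, n = 4 each) in the same order, and the arrays of the groups with PyMT overlapped with each other, as did those of the groups without it.

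In PyMT against MMTV-Cre arrays the log2 difference of Sec24d was 0.87 ± 0.182, or 1.83 times the MMTV-Cre level, with an adjusted p of 0.0314 in limma. It was the only 1 of 10 members called, where 1.26% of all genes were called and 0.881% were called higher. The PyMT arrays of Sec24d lay above all MMTV-Cre arrays, as for 4.44% of all genes. Of the 10 members, 4 had higher estimates here, where 55% of all genes did. These MMTV-Cre arrays are shared with the comparison through which the genes were proposed. The call did not hold in 7 of 27 alternatives, in which the adjusted p reached up to 0.128. Among them are fits without PyMT replicate 1 (0.12) and without MMTV-Cre replicate 1 (0.092), 3 (0.0869) or 4 (0.0796).

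In p38α-lox PyMT against p38α-lox arrays Sec24d differed by 0.62 ± 0.182, and its arrays did not overlap, as for 4.41% of all genes in this direction. The adjusted p was 0.144, so that 0 of 10 members were called here, where 0.777% of all genes were. These p38α-lox arrays are also shared with the comparison through which the genes were proposed. Higher estimates were seen for 8 of 10 members, where 46.5% of all genes had them. Without the 2 arrays of lowest correlation these were 6 of 10 members and 7936 of 14410 genes. Among arrays with low and with high title numbers the difference was 0.92 and 0.72 in PyMT minus MMTV-Cre and 0.62 and 0.63 in p38α-lox PyMT minus p38α-lox, with a single PyMT array on the high side.

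Averaging both comparisons, which was added after seeing the data, sets 8 arrays with PyMT against 8 without. The 8 without PyMT are the arrays of the comparison through which the genes were proposed, so this test is not independent of that choice. Sec24d averaged 6.99 ± 0.294 with and 6.24 ± 0.194 without PyMT (SD, n = 8 each). The difference was 0.75 ± 0.129 with an adjusted p of 0.00375 in limma, where 6.18% of all genes were called and 3.67% were called higher. In 25 of 25 alternatives Sec24d stayed called, with differences from 0.69 to 0.88 and an adjusted p of at most 0.0118. Changes of the filter, the mean of probe sets and trend and robust options left the estimate at 0.748 by construction and could move the adjusted p alone. The 8 arrays with PyMT lay above the 8 without, as for 0.666% of all genes.

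The other members were not called in this average. Sec23b, the next in size, differed by 0.44 ± 0.200 (adjusted p = 0.24), with 7.46 ± 0.375 against 7.02 ± 0.488. In p38α-lox PyMT minus p38α-lox it differed by 0.57 ± 0.283 (adjusted p = 0.451) and Sec31a by 0.43 ± 0.237 (adjusted p = 0.518). Sec24b had the lowest estimate in PyMT minus MMTV-Cre, at −0.51 ± 0.296 (adjusted p = 0.504). Sec24c, the closest relative of Sec24d, differed by 0.31 ± 0.191 in the average (adjusted p = 0.414).

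Some marker lists of other cells also had higher means in arrays with PyMT. The mean of the 7 measured of 8 listed basal and myoepithelial markers ranged from 7.333 to 8.102 in p38α-lox PyMT and from 7.274 to 8.055 in PyMT arrays, against 5.476 to 7.245 in p38α-lox and 5.875 to 7.644 in MMTV-Cre arrays. Of these markers 6 had higher estimates in p38α-lox PyMT minus p38α-lox and 5 in PyMT minus MMTV-Cre, while Oxtr had lower means in both groups with PyMT. The mean of 6 leukocyte markers ranged from 4.596 to 4.812 in p38α-lox PyMT and from 4.618 to 4.682 in PyMT arrays, against 3.946 to 4.577 in p38α-lox and 4.111 to 4.592 in MMTV-Cre arrays. Cd68 averaged 9.05, 8.07, 6.31 and 7.30 in these groups. The pan-leukocyte antigen Ptprc averaged 2.79, 2.81, 2.84 and 2.88, below the 3.67 that a gene had to reach to be tested. The fibroblast list ranged from 4.437 to 6.245 in p38α-lox PyMT and from 4.59 to 6.211 in PyMT arrays, against 4.522 to 4.966 in p38α-lox and 5.098 to 5.998 in MMTV-Cre arrays, and its 3 tested genes had a median difference of 1.25 in p38α-lox PyMT minus p38α-lox and of 1.05 in PyMT minus MMTV-Cre. Of these genes Dcn averaged 6.84, 6.52, 6.71 and 7.88 in the 4 groups, and was thus lower in PyMT than in MMTV-Cre arrays. Col1a2 (3.36) and Pdgfra (3.55), also in the list means, were too low to be tested. In the average of both PyMT comparisons 3 of 7 basal, 1 of 4 tested leukocyte and 0 of 3 tested fibroblast markers were called higher. Of all genes 3.67% were. The endothelial list averaged 4.63, 4.66, 4.68 and 4.62, the erythroid list 6.08, 6.31, 6.19 and 6.29, and the adipocyte list 4.0, 4.63, 4.01 and 3.83 in the 4 groups. Their part in the Sec24d difference was not tested.

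Sar1a gave a different picture on each probe set in these comparisons. The brighter probe set differed by −0.34 ± 0.129 in PyMT minus MMTV-Cre and by 0.32 ± 0.129 in p38α-lox PyMT minus p38α-lox. In order of level its groups ran from MMTV-Cre (9.47 ± 0.108) through p38α-lox PyMT (9.22 ± 0.146) and PyMT (9.13 ± 0.213) to p38α-lox (8.91 ± 0.124), and the neighbours p38α-lox PyMT and PyMT lay within 1 SD of each other.

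On the other probe set Sar1a read 8.478, 8.847, 9.105 and 8.669 in p38α-lox PyMT arrays and 8.577, 8.498, 9.342 and 8.628 in PyMT arrays. All 8 lay above the 8 arrays without PyMT, whose highest value was 8.472, though by only a narrow gap. Among genes read by their brightest probe set 0.666% showed such a separation. The difference was 0.68 ± 0.248 in PyMT minus MMTV-Cre and 0.74 ± 0.248 in p38α-lox PyMT minus p38α-lox. The probe sets of Sar1a thus had opposite signs in PyMT minus MMTV-Cre, and no level of the gene as a whole can be given from them.

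Sec24c was also read differently by its probe sets. The brighter averaged 8.92 ± 0.291 in PyMT and 8.64 ± 0.241 in MMTV-Cre arrays, a difference of 0.27 ± 0.270. The other read 6.292, 6.310, 6.219 and 6.577 in PyMT arrays, against 6.903, 6.785, 7.036 and 6.862 in MMTV-Cre arrays. There the PyMT arrays lay below all MMTV-Cre arrays, with a difference of −0.55 ± 0.169 that was not called among all probe sets (adjusted p = 0.155). Such a separation in this direction was seen for 2.65% of genes read by their brightest probe set.

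The probe sets of Sec24b had the same sign in both comparisons of PyMT. They differed by −0.51 ± 0.297 and −0.26 ± 0.174 in PyMT minus MMTV-Cre, and by −0.16 ± 0.297 and −0.35 ± 0.174 in p38α-lox PyMT minus p38α-lox. In p38α-lox minus MMTV-Cre their signs differed, at −0.25 ± 0.297 for the brighter and 0.16 ± 0.174 for the other. Those of Sec24c were both lower there, at −0.22 ± 0.270 and −0.36 ± 0.169. The dimmer probe set of Sec24a averaged between 2.87 and 3.13 in the 4 groups, below the filter at 3.67, and was not tested. The remaining 6 members were read by 1 probe set each.

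**Figure D4:**
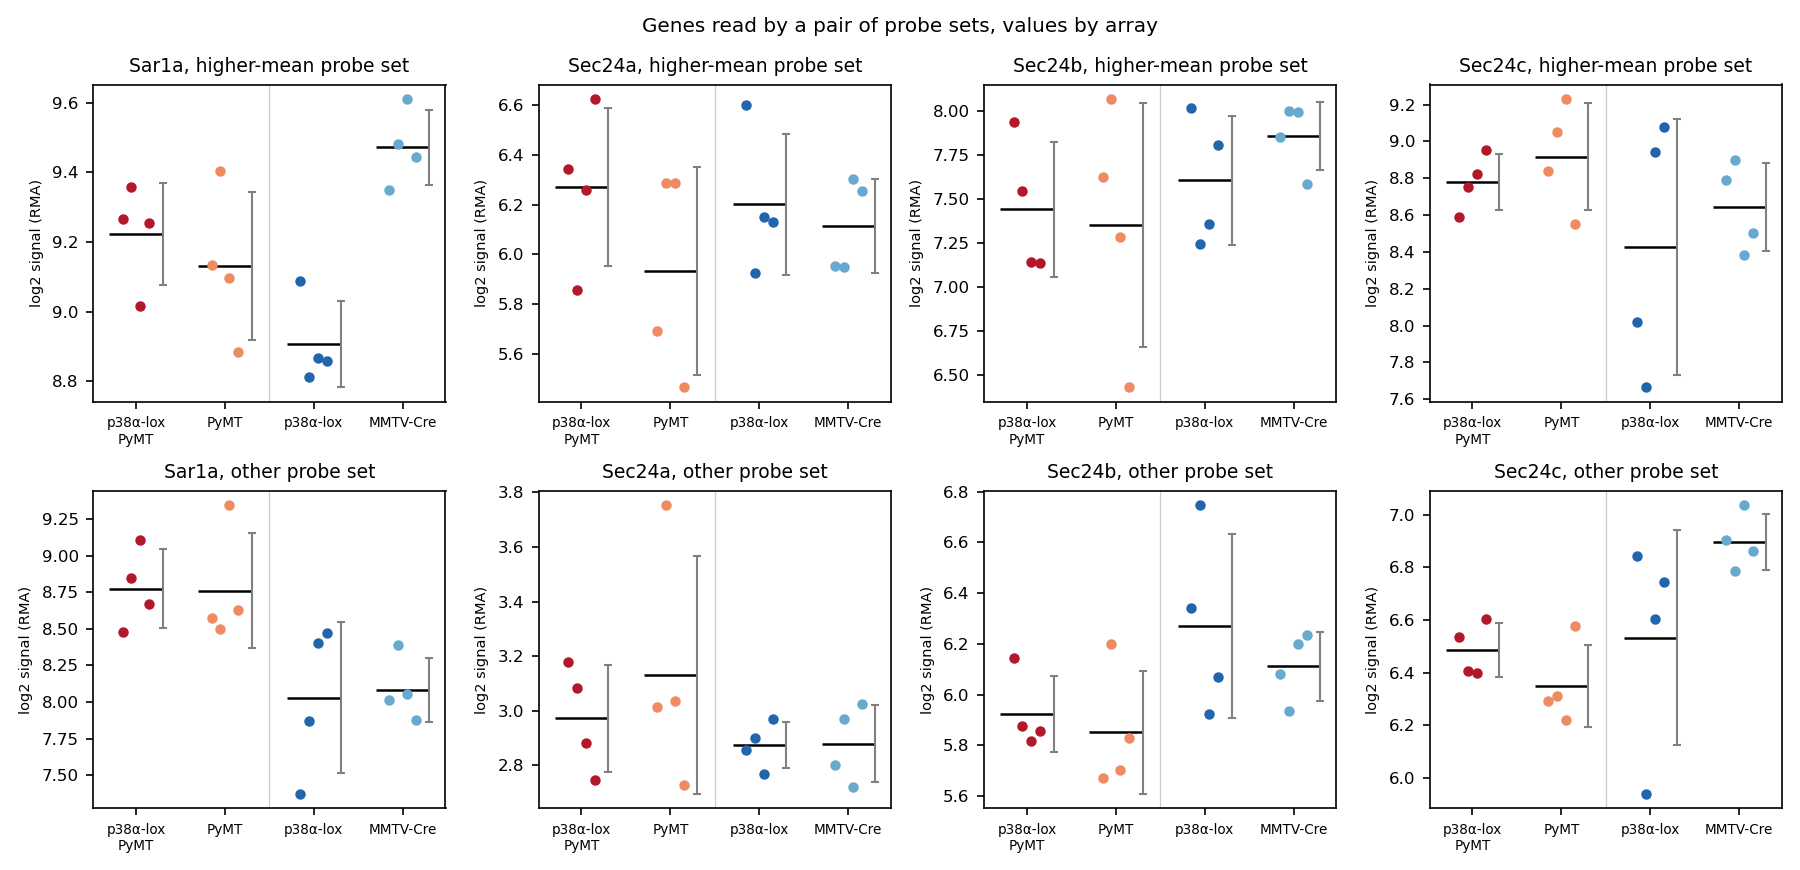
Log2 RMA signal (y axis) by array for the 4 genes read by 2 probe sets, the brighter in the upper and the other in the lower row, for the 4 groups (x axis). Points are arrays, black lines group means and grey bars the SD of 4 arrays. For Sar1a the p38α-lox arrays are the lowest group on the brighter probe set, while on the other the arrays separate by PyMT.

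Genes that work beside the coat were described from lists chosen with earlier results of these data known. Between p38α-lox and MMTV-Cre arrays 31 of 39 tested export partners of the COPII coat had lower estimates, with a median of −0.21, and 15 of 15 genes of the COPI coat, which returns vesicles from the Golgi, with a median of −0.37. Of the list of unfolded protein response regulators and chaperones, 25 of 28 did, with a median of −0.55. The clathrin coat had 7 of 11 (median −0.20), and the translocon and signal peptidase 13 of 19 (median −0.14). None of these genes was called, as none of all genes was. Without the 2 arrays of lowest correlation the medians were −0.09 for the export partners, −0.29 for COPI, −0.53 for the unfolded protein response list, −0.05 for the clathrin coat and −0.07 for the translocon list, where that of all genes was −0.04. Not all lower estimates of the partners held on either side of the title number split. Among arrays with low and with high title numbers Cnih1 differed by −1.25 and 0.42 and Mcfd2 by −0.82 and 0.18. Others were lower on both sides, such as Tmed3 (−0.60 and −0.47) and Tfg (−0.42 and −0.38).

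The largest differences of the partners were those of the cargo receptor Lman2 (−0.79 ± 0.504) and of Trappc4, a subunit of the tethering complex that receives COPII vesicles (−0.66 ± 0.201). For Lman2 the difference was −2.19 among arrays with low title numbers but 0.60 among those with high ones. In the COPI list the largest differences were those of Kdelr3 (−0.78 ± 0.305) and Kdelr2 (−0.61 ± 0.198), receptors that return chaperones to the endoplasmic reticulum. The chaperone cofactor Sdf2l1 (−1.56 ± 0.482), Edem1 of glycoprotein degradation (−1.24 ± 0.412) and the chaperone Hspa5 (−1.09 ± 0.337) led the unfolded protein response list. Preb, the exchange factor that loads Sar1 with GTP, differed by −0.25 ± 0.253. Its difference was −0.56 among arrays with low title numbers and 0.07 among those with high ones.

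Between p38α-lox PyMT and PyMT arrays 0 genes of these lists were called. The medians were 0.02 for the export partners, −0.01 for COPI and −0.12 for the unfolded protein response list. For the clathrin coat and the translocon list they were −0.08 and 0.24, where that of all genes was −0.04. Without the 2 arrays of lowest correlation the medians were −0.14, −0.17, −0.18, −0.12 and −0.004 in the same order, where that of all genes was −0.03. Syvn1, the ubiquitin ligase of protein degradation at the endoplasmic reticulum, read 5.489, 5.291, 5.311 and 5.526 in p38α-lox PyMT arrays, against 6.658, 6.502, 6.362 and 7.236 in PyMT arrays. The arrays did not overlap, as for 1.89% of all genes in this direction, and the difference was −1.29 ± 0.229 (adjusted p = 0.757). The membrane-bound transcription factor Creb3l2 differed by −0.98 ± 0.253, again without overlap, and its relative Creb3l1 by −1.33 ± 0.356 with overlap (adjusted p = 0.999 for each). In zebrafish and mouse, Creb3l2 is known to raise Sec23a in cells that secrete cartilage matrix. Sec23a differed here by −0.18 ± 0.339.

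With PyMT single genes of some lists were called beside Sec24d. In PyMT minus MMTV-Cre these were 1 of 19 in the translocon and 1 of 28 in the unfolded protein response list, where 1.26% of all genes were called. The counts were 0 of 39 for the export partners, 0 of 15 for COPI and 0 of 11 for clathrin. In p38α-lox PyMT minus p38α-lox 1 of 39 export partners and 1 of 19 translocon genes were called, and 0 of the other lists, where 0.777% of all genes were. Sec11c, a catalytic subunit of the signal peptidase, read 9.398, 9.326, 9.299 and 9.583 in p38α-lox PyMT and 8.943, 9.240, 8.971 and 9.413 in PyMT arrays, against 7.625, 8.725, 7.785 and 8.276 in p38α-lox and 6.917, 7.527, 7.781 and 7.101 in MMTV-Cre arrays. All arrays with PyMT lay above all without it, as for 0.666% of all genes and for the export partner Mcfd2. The differences were 1.81 ± 0.234 in PyMT minus MMTV-Cre (adjusted p = 0.00255) and 1.30 ± 0.234 in p38α-lox PyMT minus p38α-lox (adjusted p = 0.0196).

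Of these 2 comparisons, Creb3l1 was called in PyMT minus MMTV-Cre alone (1.91 ± 0.356, adjusted p = 0.0186), and Trappc4 in p38α-lox PyMT minus p38α-lox alone (0.99 ± 0.201, adjusted p = 0.034). Whether these effects differ between the comparisons was not called for any gene, since limma called 0% of all genes for the difference between them, which equals that between the p38α-lox effects (406, or 2.82%, at an unadjusted p below 0.05). Neither call held without the 2 arrays of lowest correlation, where the adjusted p was 0.058 for Creb3l1 and 0.071 for Trappc4. In that fit Pdcd6, a calcium-binding partner of Sec31a (0.63 ± 0.120, adjusted p = 0.0371), and Mcfd2, the partner of the cargo receptor Lman1 (1.21 ± 0.231, adjusted p = 0.0378), were called in PyMT minus MMTV-Cre.

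In the average over both comparisons 4 of 39 export partners were called higher and 1 lower, where 3.67% of all genes were called higher and 2.51% lower. The higher ones were Mcfd2 (1.05 ± 0.192), the cycling protein Ergic1 (0.78 ± 0.191), the GTPase Rab1b (0.70 ± 0.174), which acts in transport to the Golgi, and Trappc4 (0.74 ± 0.142). The lower was the fusion protein Stx5a (−0.60 ± 0.125). Of the COPI list 1 of 15 was called, Copz2 at 1.01 ± 0.225, which is close to the 6.18% called among all genes, and of the clathrin list 0 of 11. Of the unfolded protein response list 1 of 28 was called, Creb3l1 at 1.32 ± 0.252 (adjusted p = 0.00741 in limma). It stayed called without the 2 arrays of lowest correlation (adjusted p = 0.0162). Without the 2 arrays of lowest correlation 8 of 39 export partners were called higher and 1 lower, and the translocon list had 5 of 19 called instead of 1, while 529 of all genes were called higher and 285 lower. Pdcd6, Lman1, Surf4, Tmed2 and Cnih1 were then called among the partners and Rab1b was not (adjusted p = 0.0723).

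**Figure D5:**
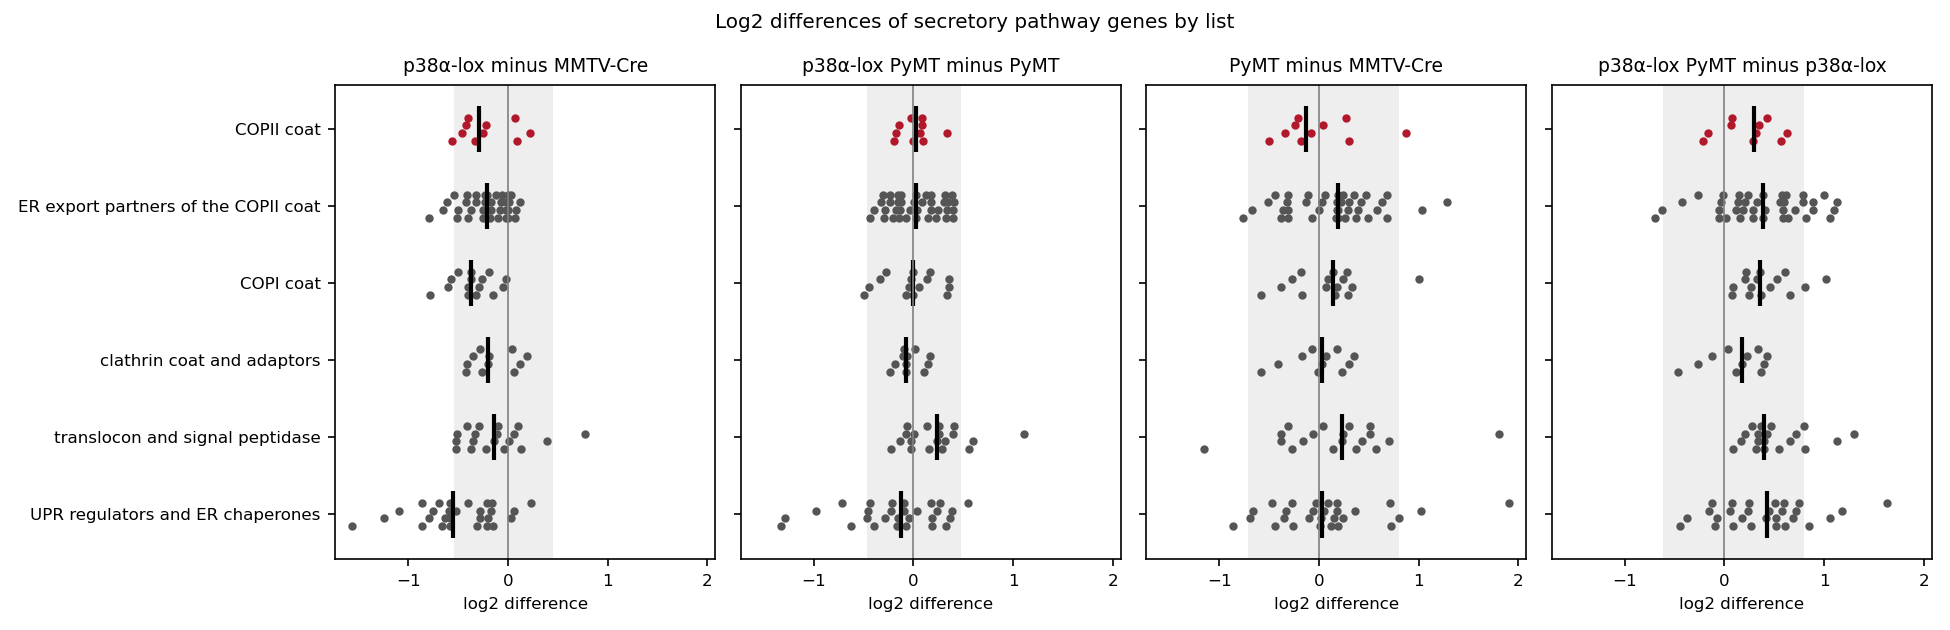
Log2 differences (x axis) of tested genes in 6 lists of the secretory pathway (y axis) in 4 comparisons, with 1 point a gene, black bars at list medians, COPII genes in red, and a grey band from the 5th to the 95th percentile of all 14410 genes tested. In p38α-lox minus MMTV-Cre the median is −0.29 for COPII, −0.37 for COPI and −0.55 for the unfolded protein response list.

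The genes whose pattern over the 16 arrays was most like that of Sar1a on its brighter probe set were Utp4 (Pearson r = 0.87), Zfp106 (0.835), Nsd3 (0.815), Nrf1 (0.812) and Gars (0.804). For Sec24d they were Scgb2b27 (r = 0.934), 4931406C07Rik (0.933), Magef1 (0.907), Mindy3 (0.903) and Asph (0.885). With group means removed, other genes led, Dnaja2 (0.918) for Sar1a and Homer1 (0.837) for Sec24d. These were picked as the highest of 14410 genes and are a description over arrays that share groups and libraries.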

How the data were processed

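The authors deposited log2 values from RMA, which the submitters' processing notes name without version or settings. From these log2 values, single-symbol probe sets (28898 of 29449 listed) were matched to genes, and each of 17097 genes was read by the probe set with the highest mean. The 14410 genes whose mean reached 3.67, the 25th percentile over probe sets, were tested, all 10 members among them, with limma 3.58.1 in R 4.3.3. A model of 4 group means over all 16 arrays gave moderated two-sided contrasts, and a call needed p below 0.05 after Benjamini-Hochberg adjustment over these genes. Probe sets were also fitted singly. The procedure was tested on simulated data.

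The labels do not say that arrays are separate animals, so p-values measure the spread between these samples, which may be technical, and the number of arrays limits the precision. Replicates are numbered in accession order. Errors after ± are SE for differences and SD for means. The members and all lists were chosen with earlier results of these data known. Named beside the members were up to 4 genes per list with the smallest p in tested contrasts or the largest difference without PyMT, Mapk14, and the 5 genes most like Sar1a and Sec24d; Preb, Sec11c, Stx5a and the genes called in the averaged contrast were also named, those outside this rule after their values were seen.

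Alternatives were no filter or a filter at the median, the mean of a gene's probe sets, probe sets fitted singly, trend and robust eBayes, quantile normalization repeated, median centring, arrayWeights, only the arrays compared, a covariate for title numbers (above or below 2100), and leaving out each array. Added after seeing the data were the fit without the 2 arrays of lowest correlation, the averaged PyMT contrast and the motif GCCACGT. Promoter windows came from RefSeq GRCm38.p6.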

Additional observations from a re-analysis of the deposited data

Results flagged for a closer look

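Sec13 in p38α-lox PyMT replicate 1 read 8.169, far below the other 3 arrays of its group, which lay between 8.86 and 8.89, and the gap made up 0.959 of the group's range. This was 1 of 40 combinations of member and group examined, where chance alone sets about 1 in 20 apart by this measure.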

How the results depend on the processing

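As a description, the Sar1a difference in p38α-lox minus MMTV-Cre lay between −0.63 and −0.31 in the 13 alternatives that could move it, the smallest with the mean of its probe sets; the other 14 left it as it was by construction. The cause of the changes below was not tested. The number of genes called in p38α-lox minus MMTV-Cre was 0, but 1 without a filter, 8 with arrayWeights and 0 to 4 with an array left out (4 without MMTV-Cre replicate 1, 1 without MMTV-Cre replicate 4). In p38α-lox PyMT minus PyMT it was 0, but 5 with arrayWeights and 0 to 3 with an array left out (3 without PyMT replicate 2). In PyMT minus MMTV-Cre it was 182, but 288 probe sets fitted singly, 1268 with arrayWeights, 55 with only the arrays compared, 111 without the 2 arrays of lowest correlation and 49 to 443 with an array left out. In p38α-lox PyMT minus p38α-lox it was 112, but 179 probe sets fitted singly, 1416 with arrayWeights, 169 with only the arrays compared and 26 to 230 with an array left out. The members called in PyMT minus MMTV-Cre, 1 in the report, were 0 with trend and robust options (Sec24d adjusted p = 0.0547), median centring (0.0527) and only the arrays compared (0.128), and 0 to 1 with an array left out. In p38α-lox PyMT minus p38α-lox the count over all 10 members was 2 with arrayWeights, Sec24d at an adjusted p of 0.00432 and Sar1a, whose inclusion is no result because its p38α-lox arrays were used in its choice.

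Signs of uncalled estimates turned under some alternatives. Among differences without a test, Sar1a in PyMT minus MMTV-Cre came to 0.17 with the mean of probe sets, and Sec24c in p38α-lox minus MMTV-Cre to 0.28 with arrayWeights. In p38α-lox PyMT minus PyMT, median centring gave 0.024 for Sec31a and 0.0051 for Sec24d; arrayWeights gave −0.0035 for Sar1b, −0.015 for Sec13 and −0.20 for Sec24b; and the fit without the 2 arrays gave −0.043, −0.11 and −0.22 for these. With an array left out, the ranges were −0.043 to 0.20 for Sar1b, −0.11 to 0.25 for Sec13, −0.15 to 0.10 for Sec31a, −0.44 to 0.16 for Sec23a, −0.22 to 0.33 for Sec24b and −0.19 to 0.092 for Sec24d. In PyMT minus MMTV-Cre, the mean of probe sets gave 0.036 for Sec24a and −0.14 for Sec24c, and the fit without the 2 arrays 0.19 for Sec23a; with an array left out, Sec31a ranged from −0.12 to 0.24 and Sec23a from −0.41 to 0.19. In p38α-lox PyMT minus p38α-lox, arrayWeights gave −0.14 for Sec23a and −0.047 for Sec24c, the fit without the 2 arrays −0.21 for Sec23a and −0.022 for Sec24a, and with an array left out Sec23a ranged from −0.21 to 0.22 and Sec24a from −0.048 to 0.21. No paired analysis was possible because the replicate numbers are in accession order and the labels give no pairing. No value exists for the difference between the p38α-lox effects with only the arrays compared, which needs all arrays.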
